A study of Drosophila melanogaster with 12 samples.

Results

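The integrin adhesion genes described here were the integrin subunit genes mys, mew, if and scb and the genes for 3 proteins that act on the inner side of the membrane, rhea, Ilk and Vinc. Their members were the probe sets that the platform annotation pairs with 1 of these 7 symbols, which gave 8 of the 13966 probe sets in the files and 7 of the 10843 genes with a probe set of their own. rhea had 2 probe sets, 143020_at and 151754_at, each other gene had 1, and no probe set named a member beside another gene. Organs were dissected from wandering third-instar larvae of the w1118 strain with partly blue guts, 8 animals to a well, and kept in culture for 1 h before the treatments began. The 4 treatments then ran for 6 h at 25 °C, and each was represented by 3 arrays. They were 20-hydroxyecdysone (20E, the steroid hormone that starts metamorphosis) at 5 µM with cycloheximide (an inhibitor of protein synthesis) at 85 µM, 20E at 5 µM alone, cycloheximide at 85 µM alone, and fresh medium without hormone. The series' labels give the source as whole animal, whereas its protocols describe dissected organs. Each array therefore held RNA of many organs together, and fewer cells of a type cannot be told apart from less RNA per cell.

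Integrins are receptors made of an alpha and a beta subunit that bind proteins of the extracellular matrix outside the cell. Inside the cell, talin binds the tail of the beta subunit and links it to actin filaments, vinculin binds talin and actin, and integrin-linked kinase is a scaffold that acts in a complex with PINCH and parvin. In Drosophila, integrin adhesion holds muscles to tendon cells and holds the upper and lower epithelia of the wing together, and it is used when the discs change shape at metamorphosis.

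The 12 arrays had median intensities between 114 and 118, and the log2 values of arrays of 1 group correlated at 0.983 to 0.993 (Pearson, over probe sets, which do not count as replicates). A list held 10 genes linked to 20E by the study or by earlier work, of which 8 were measured. With 20E plus cycloheximide, 7 of the 8 were called higher than with cycloheximide (1.25% of all probe sets were called, in either direction). Against no hormone, 20E alone gave 7 called higher (2.16% of all). The study selected vri, brat, cbt and Sox14 partly from these same arrays, so for them this check is not independent. Markers of salivary gland, fat body and midgut were bright in every group, with summed intensities over 6, 3 and 7 genes that reached 42102, 22476 and 21203. Summed imaginal disc markers were lower, between 933 and 1150 over 5 genes. Here a called probe set is one whose limma p, adjusted over all probe sets, was under 0.10 and whose mean log2 values differed 1.3-fold or more. Log2 differences and folds are between mean log2 values, so they can depart slightly from ratios of the mean intensities. No fold limit was set for the difference between both 20E effects.

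Of the integrin adhesion genes, only rhea was called by limma, higher with 20E than without hormone and through 1 of its probe sets, and no other member was called in any comparison. With 20E against no hormone, 1 of the 8 probe sets was called, where 2.16% of all 13966 were, and 5 of the 8 had positive differences, where 47.9% of all did. In the comparisons of 20E plus cycloheximide with cycloheximide, of cycloheximide with no hormone and of 20E plus cycloheximide with 20E, 0 of the 8 probe sets were called by limma, where 1.25%, 4.42% and 1.99% of all probe sets were. The labels do not say whether same-numbered arrays are paired. With the replicate number as a block, 1 of the 8, rhea 151754_at, was called with cycloheximide against no hormone, where 5.35% of all were. The same block gave 2 of the 8 with 20E against no hormone, where 446 of all 13966 were called. SAM called 1 of the 8 with 20E against no hormone (2.22% of all) and 0, 1 and 0 of the 8 in the other 3 comparisons (1.21%, 5.96% and 2.37% of all), each time rhea 151754_at. The difference between both 20E effects was called for 0 of the 8 by limma, where 0.136% of all probe sets were.

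At an unadjusted p under 0.05, the counts were 4 of the 8 with 20E against no hormone (14.9% of all), 3 with 20E plus cycloheximide against cycloheximide (10.2% of all), 3 with cycloheximide against no hormone (21.1% of all), 0 with 20E plus cycloheximide against 20E (13.9% of all) and 1 for the difference between both 20E effects (14.7% of all). Arrays of the compared groups did not overlap for 2 of the 8 probe sets with 20E against no hormone, where this held for 20.7% of all. They did not overlap for 5 with 20E plus cycloheximide against cycloheximide (13.9% of all), for 4 with cycloheximide against no hormone (27.1% of all) and for 1 with 20E plus cycloheximide against 20E (18.0% of all). The comparisons share arrays: cycloheximide arrays, 20E arrays and no hormone arrays each enter more than 1 of them.

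**Figure D1:**
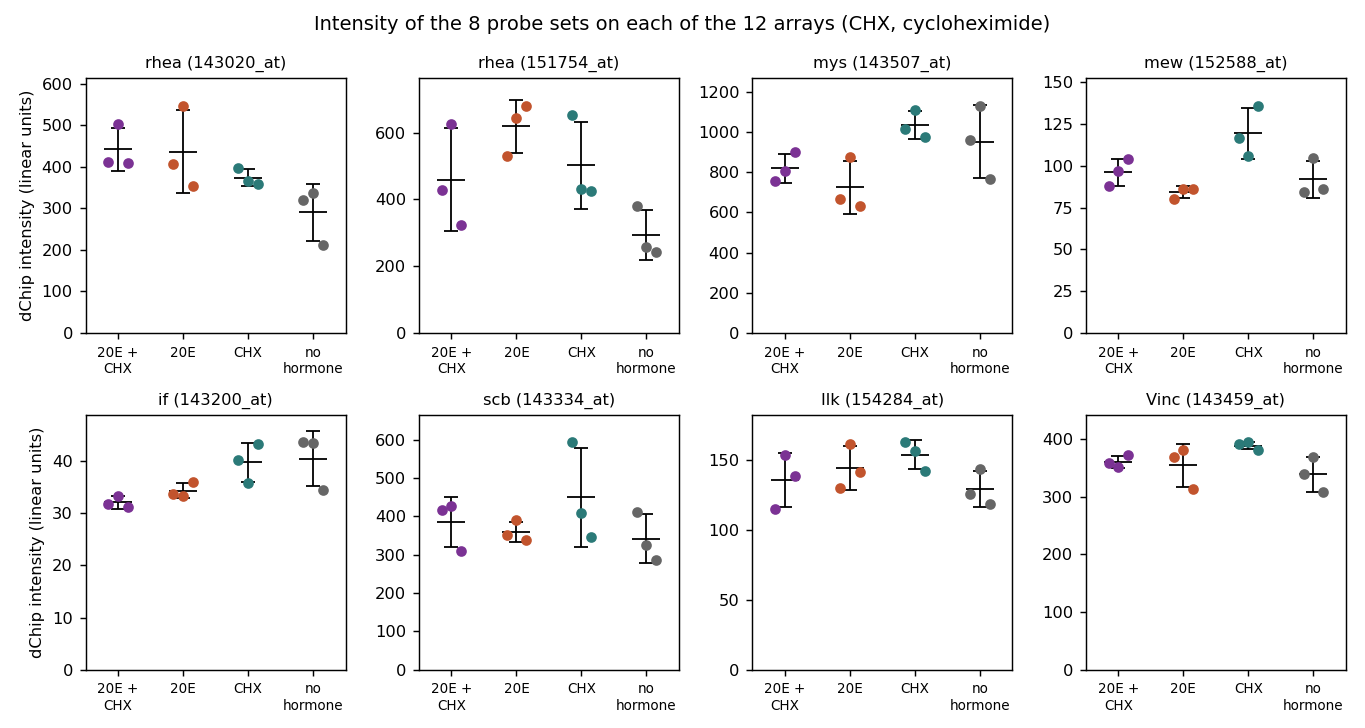
Intensity of each of the 8 probe sets on each array (linear dChip units, 1 panel per probe set, each axis starting at 0), with points for the 3 arrays of a group, a line for the mean and bars for 1 SD. For rhea probe set 151754_at the 3 arrays with 20E lay between 531 and 681, above the 241 to 380.1 of the arrays without hormone.

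Talin is encoded by rhea, a large protein that couples the beta subunit to the cytoskeleton. Probe set 151754_at read 427, 626 and 322 with 20E plus cycloheximide, 531, 644 and 681 with 20E, 653, 430.5 and 424 with cycloheximide, and 380.1, 258 and 241 without hormone. The arrays with 20E alone and those with cycloheximide alone were all above the arrays without hormone, whereas the arrays with both agents spread across the range of the other groups. The mean intensity was 619 ± 78.1 with 20E and 293 ± 75.8 without hormone (SD, n = 3 each). The mean log2 values differed by 1.10 (SE 0.25, 95% confidence interval 0.56 to 1.64, adjusted p = 0.0555, limma), or 2.14-fold. The study names rhea among genes that respond to the hormone partly from these same arrays, so this call is not independent evidence. It ended when any of 4 arrays was left out: the adjusted p was 0.184 without 20E replicate 2, 0.158 without 20E replicate 3, 0.223 without no hormone replicate 2 and 0.167 without no hormone replicate 3. Of the arrays compared, only replicate 1 of 20E or of no hormone could be left out with the call kept (adjusted p = 0.0747 and 0.0423). Over omissions of the arrays compared, the difference lay between 0.975 and 1.303 on the log2 scale. Omission of a cycloheximide or 20E plus cycloheximide array cannot change the difference, only its SE and adjusted p.

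**Figure D2:**
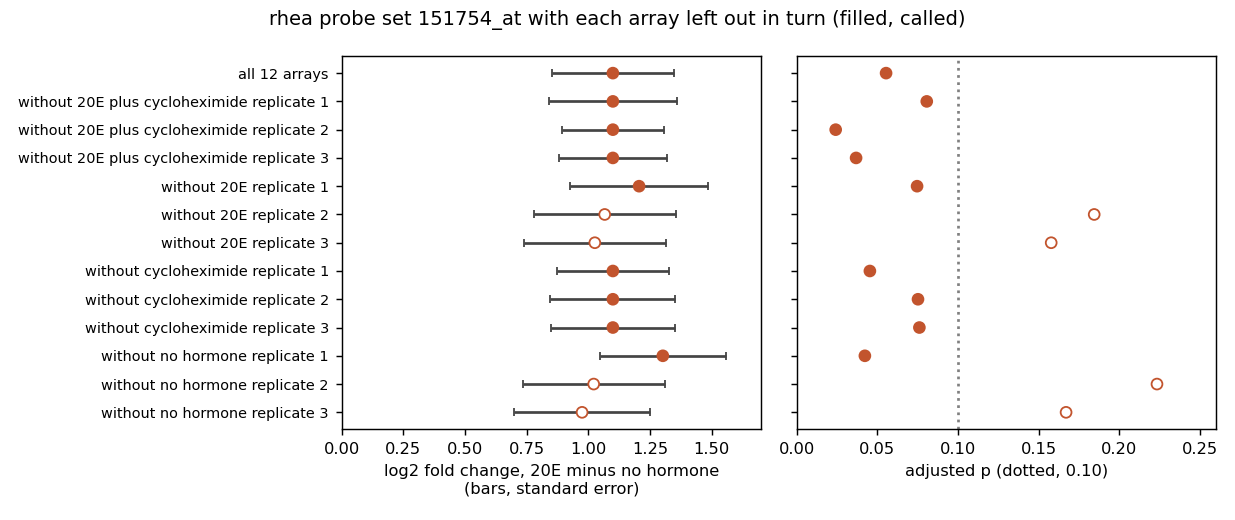
Difference in rhea probe set 151754_at between 20E and no hormone (left, log2 units, bars are 1 SE) and its adjusted p (right, dotted line at 0.10) with all 12 arrays and with each array left out in turn. Filled points were called, and the open points, with adjusted p between 0.158 and 0.223, are the omissions of 20E replicates 2 and 3 and no hormone replicates 2 and 3.

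In the presence of cycloheximide the same rhea probe set was not called. It averaged 459 ± 154 with 20E plus cycloheximide and 502 ± 130.1 with cycloheximide (SD, n = 3 each), a log2 difference of -0.16 (SE 0.25, 95% confidence interval -0.70 to 0.39, adjusted p = 0.900). With cycloheximide alone it was 0.78 above no hormone on the log2 scale (SE 0.25, 95% confidence interval 0.24 to 1.32, adjusted p = 0.107), which was not called. With the replicate number as a block the adjusted p was 0.0829 and the probe set was called. It was also called without no hormone replicate 1 (adjusted p = 0.0635) and without 20E plus cycloheximide replicate 2 or 3 (adjusted p = 0.0616 and 0.0735). The difference between both 20E effects was -1.26 (SE 0.35, 95% confidence interval -2.02 to -0.49, adjusted p = 0.208), so the effect of 20E was not shown to differ with cycloheximide. It was called, at -1.51 with an adjusted p of 0.0876, when 20E plus cycloheximide replicate 2 was left out, which raised the calls of this difference over all probe sets to 274, against 19 with all arrays. With both agents against 20E alone the difference was -0.48 (SE 0.25, adjusted p = 0.432).

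The second rhea probe set, 143020_at, read 413, 502.5 and 410.4 with 20E plus cycloheximide, 407, 547 and 355 with 20E, 397, 367 and 359 with cycloheximide, and 321, 338 and 212 without hormone. All 9 arrays of the 3 treated groups were above the 3 arrays without hormone. How often this held over all probe sets was not counted, and the 3 groups are set against the same arrays. For single comparisons, arrays did not overlap for 20.7% of all probe sets with 20E against no hormone. With cycloheximide against no hormone this share was 27.1%. No comparison of this probe set was called. The log2 difference was 0.59 with 20E against no hormone (SE 0.18, 95% confidence interval 0.19 to 0.99, adjusted p = 0.161), 0.23 with 20E plus cycloheximide against cycloheximide (SE 0.18, adjusted p = 0.745) and 0.39 with cycloheximide against no hormone (SE 0.18, adjusted p = 0.243). Both rhea probe sets had positive differences with 20E against no hormone, with confidence intervals that overlap but come from the same arrays. With 20E plus cycloheximide against cycloheximide they went opposite ways, 0.23 for 143020_at, whose arrays did not overlap, and -0.16 for 151754_at. They had a Pearson correlation of 0.69 over the 12 arrays, which include the treatments.

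The beta subunit βPS, the common partner of the alpha subunits described next, is encoded by mys. Its probe set read 756, 806 and 899 with 20E plus cycloheximide, 666, 874 and 634 with 20E, 1017, 1109 and 975 with cycloheximide, and 961, 1131 and 765 without hormone. The arrays with both agents were all below those with cycloheximide alone, and the arrays with 20E overlapped those without hormone through 20E replicate 2 and no hormone replicate 3. The mys difference was -0.33 with 20E plus cycloheximide against cycloheximide (SE 0.15, adjusted p = 0.468) and -0.39 with 20E against no hormone (SE 0.15, 95% confidence interval -0.72 to -0.07, adjusted p = 0.252), and neither passed the test. With cycloheximide against no hormone it was 0.13 (SE 0.15, adjusted p = 0.639).

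The alpha subunit αPS1, which on the dorsal wing epithelium pairs with βPS and binds laminin, is encoded by mew. The intensities were 87.6, 96.7 and 104 with 20E plus cycloheximide, 80.2, 86.2 and 86.2 with 20E, 116, 106 and 136 with cycloheximide, and 84.5, 105 and 86.3 without hormone. The 3 arrays with cycloheximide alone were the highest of the 12, though the lowest of them was only just above no hormone replicate 2. The log2 difference between cycloheximide and no hormone was 0.378 (SE 0.11, 95% confidence interval 0.14 to 0.61, adjusted p = 0.0753), which passed the adjusted p and fell just short of the 1.3-fold limit of 0.379 on the log2 scale. Without no hormone replicate 2 or without cycloheximide replicate 2 it was called, at 0.48 and 0.46. With 20E plus cycloheximide against cycloheximide mew differed by -0.31 (SE 0.11, adjusted p = 0.306) and with 20E against no hormone by -0.12 (SE 0.11, adjusted p = 0.647). Summed intensities of 5 imaginal disc markers lay between 1095 and 1150 with cycloheximide and between 933 and 1003 without hormone, groups that do not overlap either, and nub and Dll made up most of these sums. Of the 5, 3 had positive differences: vg was called higher with cycloheximide by 0.96 on the log2 scale (adjusted p = 0.00952), nub differed by 0.25 and Dll by 0.19, whereas ap differed by -0.0036 and ptc by -0.08. The part of these markers in the mew values was not tested.

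The remaining alpha subunits gave no called change. The gene if encodes αPS2, the subunit of muscle and ventral wing epithelium, and it was dim: 31.7, 33.3 and 31.1 with 20E plus cycloheximide, 33.6, 33.3 and 36.02 with 20E, 40.2, 35.8 and 43.3 with cycloheximide, and 43.5, 43.4 and 34.3 without hormone. Between 15.7% and 17.5% of the intensities on an array were under 50, as all 12 values of if were, and the files hold no detection calls. Its arrays with both agents were all below those with cycloheximide, with a log2 difference of -0.31 (SE 0.10, adjusted p = 0.263). With 20E against no hormone if differed by -0.23 (SE 0.10, adjusted p = 0.315). The gene scb encodes αPS3, a subunit of several migrating or spreading epithelia, and read 417.5, 426 and 309 with 20E plus cycloheximide, 350.2, 389 and 337 with 20E, 593, 409 and 346 with cycloheximide, and 412, 326 and 287 without hormone. All 4 groups of scb overlapped, and cycloheximide replicate 1 stood above the other 11 arrays. Differences in scb were 0.09 with 20E against no hormone (SE 0.19, adjusted p = 0.871), -0.20 with 20E plus cycloheximide against cycloheximide (SE 0.19, adjusted p = 0.806) and 0.37 with cycloheximide against no hormone (SE 0.19, adjusted p = 0.291).

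No difference in vinculin, which strengthens the link of talin to actin, or in integrin-linked kinase was called. Vinc read 358, 352 and 372 with 20E plus cycloheximide, 369, 382 and 313 with 20E, 391, 394 and 381 with cycloheximide, and 339.9, 369 and 308 without hormone. The arrays with cycloheximide alone were above both the arrays with both agents and the arrays without hormone, by small margins: the log2 difference of Vinc was 0.20 with cycloheximide against no hormone (SE 0.09, adjusted p = 0.204) and -0.11 with 20E plus cycloheximide against cycloheximide (SE 0.09, adjusted p = 0.751). The difference in Vinc with 20E against no hormone was 0.06, with a 95% confidence interval of -0.12 to 0.25 (adjusted p = 0.768). Ilk read 115, 153 and 138 with 20E plus cycloheximide, 130.02, 161 and 141 with 20E, 162, 156 and 142 with cycloheximide, and 125, 143 and 118 without hormone. Every pair of Ilk groups overlapped, and its log2 differences were 0.16 with 20E against no hormone (SE 0.12, adjusted p = 0.559), -0.19 with 20E plus cycloheximide against cycloheximide (SE 0.12, adjusted p = 0.651) and 0.25 with cycloheximide against no hormone (SE 0.12, adjusted p = 0.237).

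**Figure D3:**
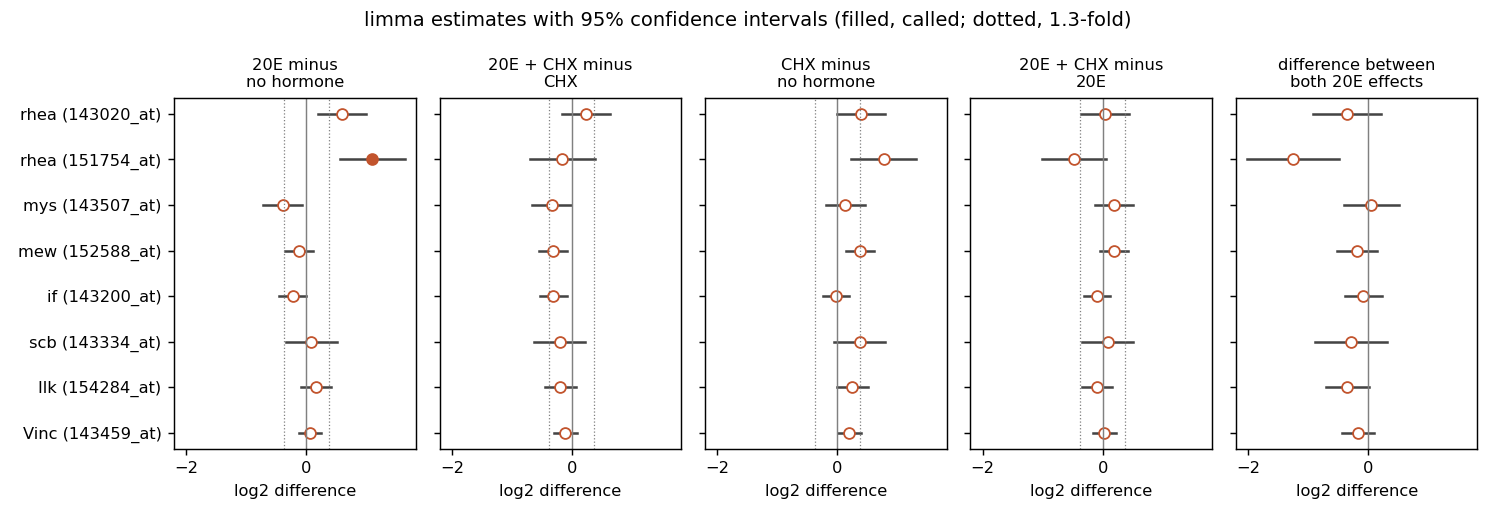
limma estimates of the difference in each of the 8 probe sets for the 5 comparisons (log2 units, bars are 95% confidence intervals, dotted lines mark 1.3-fold in the 4 comparisons that use it). The only filled point, a called difference, is rhea 151754_at with 20E against no hormone, at 1.10.

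Over the 8 member probe sets the median log2 difference was 0.08 with 20E against no hormone, where the median of all 13966 was -0.01. It was -0.20 with 20E plus cycloheximide against cycloheximide (0.02 over all), with 1 of 8 positive where 56.4% of all were. With cycloheximide against no hormone it was 0.31 (-0.03 over all), with 7 of 8 positive where 41.2% of all were. The last 2 comparisons share the cycloheximide arrays, on opposite sides of the difference.

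The other genes of the pathway came from 6 lists of adhesion and cytoskeleton genes. Of the other integrin subunits, all 3 were measured (Itgbn, the beta subunit βν, and the alpha subunits ItgaPS4 and ItgaPS5) and none of them was called in any comparison. Their log2 differences lay between -0.22 and 0.02 with 20E against no hormone. Of the cytoplasmic partners of integrins, 15 of 20 had a probe set of their own. With cycloheximide against no hormone 1 of the 15 was called higher and 0 lower, where 4.42% of all probe sets were called. None was called in the other comparisons. The called gene was stck, which encodes PINCH, the protein that binds integrin-linked kinase. stck read 525, 656 and 510.2 with 20E plus cycloheximide, 404, 459 and 428 with 20E, 816, 646 and 600.3 with cycloheximide, and 424, 417 and 348 without hormone. Both groups with cycloheximide were above both groups without it on every array, and how often this held over all probe sets was not counted. The difference in stck between cycloheximide and no hormone was 0.79 on the log2 scale (SE 0.13, adjusted p = 0.00679), and it was called under every alternative run. With both agents against 20E stck differed by 0.38 (SE 0.13, adjusted p = 0.199) and with 20E against no hormone by 0.12 (SE 0.13, adjusted p = 0.706). The third protein of that complex, parvin, chosen after its values were seen, differed by -0.10 with cycloheximide against no hormone (SE 0.07, adjusted p = 0.388). ics of the same list, also chosen so, differed by 0.52 in that comparison (SE 0.16, adjusted p = 0.107). Of the 15 measured partners, 7 had positive differences there, where 41.2% of all probe sets did.

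**Figure D4:**
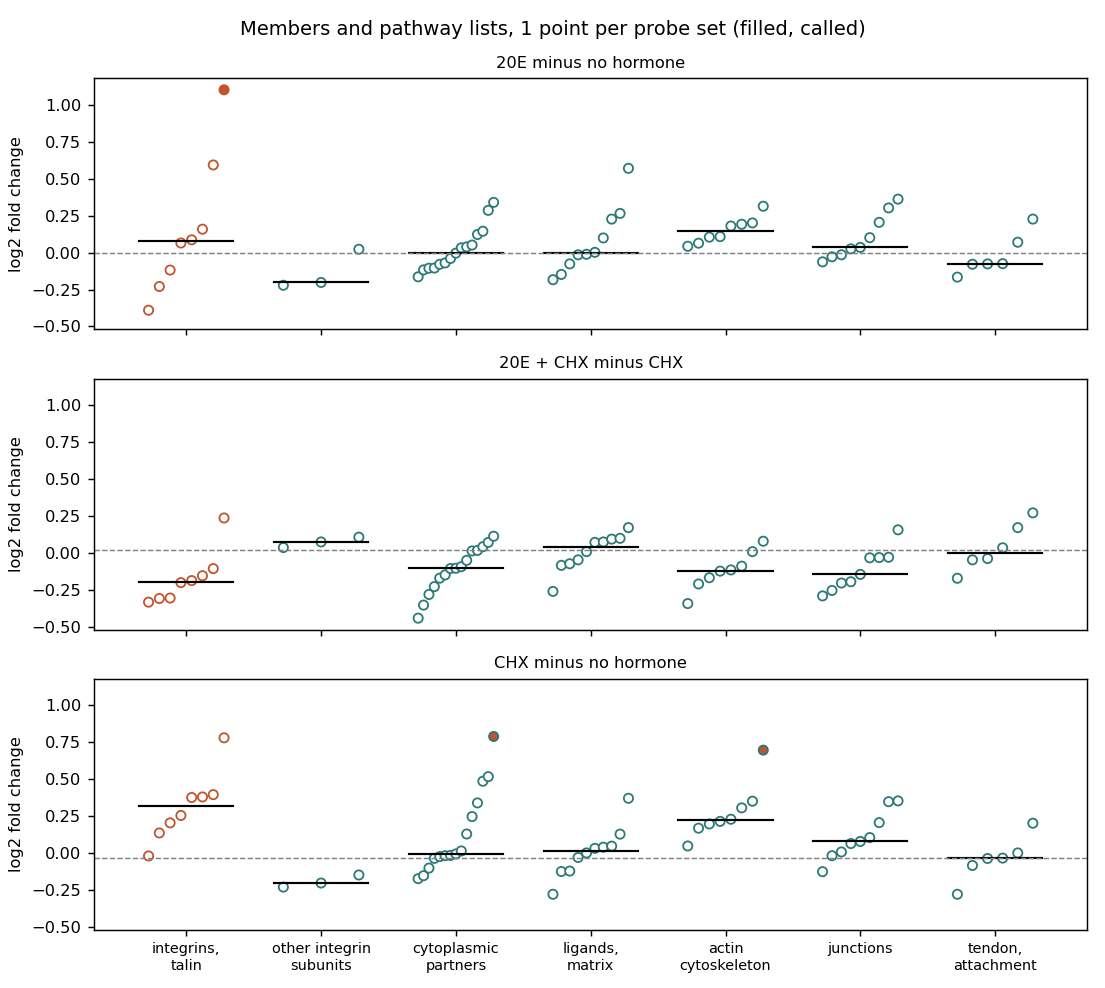
Differences (log2 units) of the 8 member probe sets and of the measured genes of 6 pathway lists in 3 comparisons, with 1 point for each probe set, a line for the median of each list and a dashed line for the median of all probe sets. Filled points were called: rhea with 20E against no hormone at 1.10, and with cycloheximide against no hormone stck at 0.79 and ena at 0.69.

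Extracellular ligands of integrins and other basement membrane genes gave no call: 10 of 11 were measured, and with 20E against no hormone their differences lay between -0.18 and 0.57. The highest was LanA, which encodes a laminin alpha chain and was chosen after its values were seen. It read 121 ± 15.8 with 20E and 81.3 ± 9.38 without hormone (SD, n = 3 each, adjusted p = 0.119, limma). The collagen IV genes Col4a1 and vkg, also chosen so, differed by 0.00 and -0.02 on the log2 scale. Of the actin cytoskeleton genes, 8 of 18 were measured. With 20E against no hormone 8 of 8 had positive differences (0.04 to 0.31, none called), where 47.9% of all probe sets did. With cycloheximide against no hormone 8 of 8 did (0.05 to 0.69), where 41.2% of all did. Only 2 of 8 were positive with 20E plus cycloheximide against cycloheximide, where 56.4% of all were. These counts are not separate, since the first 2 share the no hormone arrays and the last 2 the cycloheximide arrays, on opposite sides. Of the 8, only ena, an actin polymerization factor, was called with cycloheximide against no hormone, where 4.42% of all probe sets were. ena read 38.7, 42.3 and 62.7 with cycloheximide and 28.8, 27.8 and 30.3 without hormone. These groups did not overlap, the difference was 0.69 (SE 0.20, adjusted p = 0.0751), and it ended without cycloheximide replicate 3 (adjusted p = 0.212) or without any 1 of the 3 arrays without hormone (adjusted p between 0.125 and 0.210). With intensities under 50 set to 50 it was 0.11 (adjusted p = 0.480).

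Adherens and septate junction genes (9 of 12 measured) and tendon and muscle attachment genes (6 of 7 measured, 2 of them also ligands) were not called in any comparison. With 20E against no hormone the junction genes lay between -0.06 and 0.36 and the tendon and attachment genes between -0.17 and 0.23 on the log2 scale. Summed intensities of 7 muscle markers overlapped between the groups, with a range of 2993 to 4078 with 20E plus cycloheximide, 2851 to 4623 with 20E, 2393 to 4655 with cycloheximide and 2886 to 4913 without hormone. Of the 7 muscle markers, 2 had positive differences with 20E against no hormone (median -0.10), where 47.9% of all probe sets did. With 20E plus cycloheximide against cycloheximide 4 did (median 0.003, 56.4% of all). With cycloheximide against no hormone 0 did (median -0.18, 41.2% of all), and no muscle marker was called. Of 6 testis markers, 6 had positive differences with 20E against no hormone and none was called. Their sums were 2454 to 3407 with 20E and 2027 to 2820 without hormone. Of 7 midgut markers, 6 had positive differences with 20E against no hormone (median 0.24) and 1 with 20E plus cycloheximide against cycloheximide (median -0.12), and none was called. Their sums were 13973 to 18163 with 20E plus cycloheximide, 15107 to 21203 with 20E, 16138 to 18171 with cycloheximide and 14473 to 17191 without hormone. The part of the muscle, testis and midgut markers in the results of rhea and the other members was not tested.

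As a description of likeness, Pearson correlations over the 12 arrays were taken between each member and the probe sets with a mean intensity of at least 50, and these arrays share the treatments. Closest to rhea 151754_at were Obp44a, DCP2 and Cbp20, each at 0.95, and closest to rhea 143020_at were CG32137 at 0.94 and B52 and msn at 0.93. mys had CG15126 at 0.90 and mrt at 0.89 next to it, and mew had opm at 0.92 and GATAd at 0.90. The alpha subunit genes if and scb were closest to CG8353 at 0.91 and to CG6707 at 0.94. Ilk was closest to CG10337 and cpb, both at 0.90, and Vinc to CG14767 and Tsen34, both at 0.88. Among the members themselves, mys correlated with mew at 0.66, with Vinc at 0.62 and with rhea 151754_at at -0.33.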

How the data were processed

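The deposited values are linear intensities of Affymetrix Drosophila Genome Arrays, 1 for each of 13966 probe sets on 12 arrays, which the authors normalized and summarized with dChip. The baseline array and the use of mismatch probes are not given in the sources used here. Groups were taken from the sample titles, 3 independently made samples each. Of the probe sets, 12442 had exactly 1 gene symbol in the platform annotation, 327 several and 1197 none, and only the first were named. The RefSeq gene table held 12393 of their Entrez identifiers. The members and lists were chosen with earlier results of these data known.

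The deposited intensities were raised to a floor of 10 and put on the log2 scale. A single limma model (version 3.58.1, R 4.3.3) held all 4 groups, and eBayes used the trend with intensity. The p-values are two-sided, and Benjamini-Hochberg adjustment covered all 13966 probe sets. A call needed an adjusted p under 0.10 and 1.3-fold, and the interaction the adjusted p alone. The fit was tested on simulated data. A gene on a list was read through its brightest probe set, and those called in any comparison were named. Alternatives were SAM over all 20 label permutations (the methods' test), the compared arrays alone, no trend, floors of 1 and 50, quantile or median scaling, no fold limit, an adjusted p under 0.05, omission of the dimmest probe sets, each array left out, and the replicate number as a block. Deviations of same-numbered arrays from their group means correlated at 0.41, 0.21 and 0.29 between cycloheximide and no hormone. Between 20E plus cycloheximide and 20E the correlations were 0.39, 0.55 and 0.089. They were -0.028, 0.11 and 0.36 between 20E and no hormone, the comparison in which rhea was called. Between 20E plus cycloheximide and cycloheximide they were 0.026, -0.12 and 0.27. The labels do not say whether same-numbered samples were made together. The replicate block, fitted over all 4 groups, therefore served only as an alternative. The number of arrays limits the precision.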

Additional observations from a re-analysis of the deposited data

How the results depend on the processing

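Over 886 member values under the alternatives, 845 kept their direction and their side of the threshold, 6 lost a call, 16 gained one and 19 changed sign without being called. With 20E against no hormone, the count of called member probe sets was 1 by limma. It was 0 with a floor of 50, 0 at an adjusted p under 0.05, 2 with the replicate block and 0 to 1 with 1 array left out. Calls over all probe sets, 301 by limma, were then 130, 192, 446 and 105 to 367. The block added rhea 143020_at (adjusted p = 0.0454), although the labels do not pair these samples. No intensity of rhea 151754_at was under 241, so the floor of 50 did not alter its own values. With cycloheximide against no hormone, where the count was 0, it was 1 by SAM, 1 with a floor of 1, 2 with quantile normalization, 2 with arrays centred on their medians, 1 without the dimmest probe sets, 1 with no fold limit, 1 with the replicate block and 0 to 1 with 1 array left out. Calls over all probe sets, 617 by limma, were then 833, 660, 660, 684, 513, 1077, 747 and 300 to 749, in the same order. The member calls were of rhea 151754_at and mew, both higher. The difference between both 20E effects was called for 0 to 1 with 1 array left out, and over all probe sets for 1 to 274, against 19 with all arrays. The fit with the replicate block changed no other member's call.

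Changes of sign were all of uncalled values. With 1 array left out, the difference with 20E against no hormone ranged from -0.031 to 0.23 for scb and from -0.0029 to 0.15 for Vinc. With 20E plus cycloheximide against cycloheximide it ranged from -0.41 to 0.072 for rhea 151754_at and from -0.37 to 0.016 for scb. With cycloheximide against no hormone it ranged from -0.015 to 0.27 for mys and from -0.13 to 0.053 for if, and if was 0.016 with quantile normalization. With 20E plus cycloheximide against 20E it ranged from -0.10 to 0.21 for rhea 143020_at, from -0.19 to 0.019 for Ilk and from -0.057 to 0.087 for Vinc. The difference between both 20E effects ranged from -0.077 to 0.20 for mys and from -0.15 to 0.036 for if. With a floor of 50 every if value was at the floor and gave no difference, and the filter on dim probe sets left if out. With 3 arrays a group, member standard errors of 0.09 to 0.25 on the log2 scale, and 0.12 to 0.35 for the difference between both 20E effects, limit what could be called. The cause of each change was not tested.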
